A study of Mus musculus with 7 samples.

Results

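The genes described here are the FOXO and FOXP forkhead factors Foxo1, Foxo3, Foxo4, Foxp1, Foxp3 and Foxp4. They were taken as the rows that carry these gene names, 6 of 53656 gene rows in each file, and all 6 were abundant enough to be tested. Messenger RNA was measured in OT1 cells, which are CD8 T cells with a transgenic receptor for an ovalbumin peptide, sorted by CD8 and CD45.1 from B16-OVA-GP61 melanomas. By their titles 4 libraries came from tumours without SMARTA cells, whose transgenic receptor makes CD4 T cells recognise the GP61 epitope, and 3 from tumours with them. The tumour line and the sorted cell type are shared by both groups, so the comparison asks how OT1 cells differ when tumour-specific CD4 T cells are present. Host strain, age, time after transfer and whether replicates are separate animals are not given in the sources used here. The p-values therefore reflect library-to-library spread alone, which may be technical.

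FOXO factors are nuclear and active when signalling through phosphoinositide 3-kinase (PI3K) and the kinase AKT is low; AKT phosphorylates them, 14-3-3 proteins bind them and they leave the nucleus. In resting T cells FOXO1 maintains genes of survival and recirculation such as Il7r, Klf2 and S1pr1. FOXP1 keeps naive T cells quiescent and can compete with FOXO1 at the Il7r gene, and FOXP3 is the defining factor of regulatory T cells. Transcript counts measure the messenger RNA of these factors, not the amount, phosphorylation or location of the proteins.

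The libraries held 38092722 to 49438357 counts. The sorted cells carried the CD8 lineage markers Cd3e, Cd3d, Cd3g, Cd8a and Cd8b1 in every library, which summed to 5348 to 7448 CPM (library-size scaled counts with TMM factors) without SMARTA and 7113 to 8872 CPM with SMARTA. Replicate 1 with SMARTA stood apart by 7 erythroid markers, which summed to 5061 CPM there and to 10.0 to 239 CPM in the 6 other libraries. It also had the highest summed markers of B cells (63.0 CPM against 9.38 to 38.3), macrophages and monocytes (213 against 38.8 to 183), dendritic cells (452 against 51.2 to 244) and NK cells (130 against 19.96 to 91.3). The macrophage and monocyte sum there was mostly Lyz2 (119 CPM), and the B cell sum was mostly Cd79a and Cd79b (24.0 and 25.2 CPM). Not every marker of these lists was highest there. Cd68 was lowest, at 6.81 CPM against 11.4 to 28.0 CPM elsewhere. Cd14, Itgam, Ms4a1, Pax5 and Cd22 were each higher in some other library. The dendritic sum there was mostly Itgax (421 CPM), with Xcr1 at 27.6 CPM and the other markers of that list at 0.0212 to 1.21 CPM. The NK sum was mostly Klrb1c (106 CPM), with Tyrobp and Fcer1g at 12.2 and 11.9 CPM and no count of Ncr1. Replicate 2 without SMARTA had the highest sum of 7 melanoma markers, 61.5 CPM against 6.75 to 16.7 CPM elsewhere. Neutrophil markers summed to 32.6 and 23.5 CPM in replicates 1 and 2 without SMARTA, against 0.554 to 3.44 CPM elsewhere. The part of these transcripts in the results was not tested; values without replicate 1 with SMARTA or replicate 2 without SMARTA are given beside several of the results. In bulk libraries, fewer cells of a type and less RNA per cell cannot be told apart.

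Foxo1 and Foxp1 transcripts had their highest values in replicates 2 and 3 with SMARTA, whereas replicate 1 with SMARTA lay within the range of the libraries without SMARTA for both genes. Foxp3 and Foxp4 had lower means with SMARTA, and Foxo3 and Foxo4 had means that differed by less than the SD of either group. None of the 6 genes passed the test of the whole transcriptome (edgeR's quasi-likelihood fit of 15896 genes; the threshold was 0.05 for the p-value after Benjamini-Hochberg adjustment). Of all genes tested 3.15% passed, 1.52% higher and 1.63% lower with SMARTA. At an unadjusted p under 0.05 the edgeR count was 1 of 6 genes, Foxo1, against 18.6% of all genes tested. Without replicate 1 with SMARTA it was 3 of 6, against 3565 of 16770 genes tested, and without any 1 of the 6 other libraries it was 0. DESeq2 and limma-voom also called 0 of the 6, with 1 and 0 at an unadjusted p under 0.05. The libraries of the groups did not separate for any of the 6 genes, while 19.2% of all genes tested had no overlap.

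**Figure D1:**
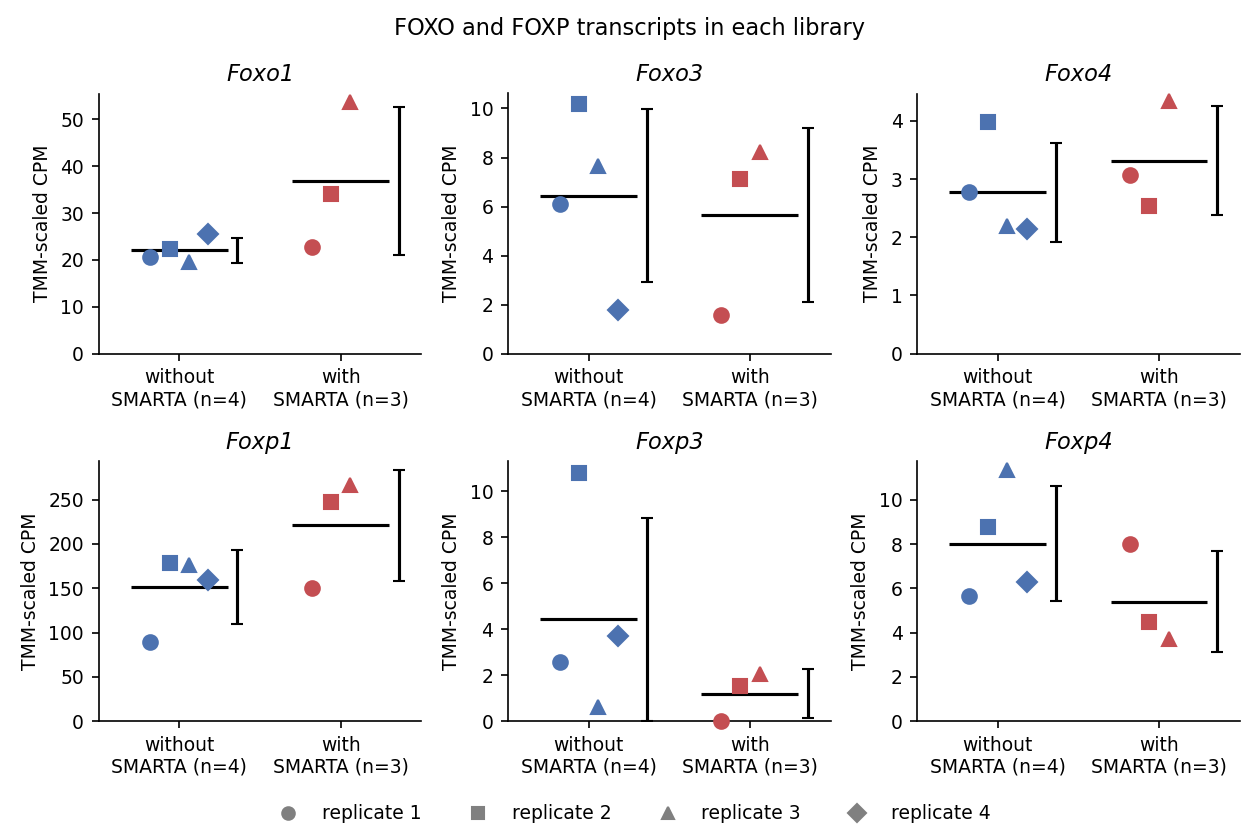
Each panel shows 1 gene, with TMM-scaled CPM on a linear axis from 0; points are libraries, horizontal lines are group means and the vertical bars are 1 SD, cut at 0 where they would pass below it. The 3 libraries with SMARTA span 22.7 to 53.8 CPM for Foxo1 and 149.8 to 267 CPM for Foxp1, and the groups overlap in all 6 panels.

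Foxo1, the main FOXO factor of T cell homeostasis, lies on chromosome 3 from 52268336 to 52353221 on the plus strand (GRCm38, exons of GENCODE M17). Its level was 20.5, 22.4, 19.7 and 25.6 CPM in replicates 1 to 4 without SMARTA and 22.7, 34.0 and 53.8 CPM in replicates 1 to 3 with SMARTA. The libraries without SMARTA lay close together, those with SMARTA were spread widely, and 2 of 3 exceeded every library without. The means were 22.0 ± 2.63 CPM without and 36.8 ± 15.7 CPM with SMARTA (SD, n = 4 and 3). The log2 fold change was 0.74 ± 0.31 (SE) with a 95% interval of 0.04 to 1.43 (edgeR adjusted p = 0.24). Replicate 3 with SMARTA carried much of this difference: without it the log2 fold change was 0.34 (edgeR adjusted p = 0.625). Without replicate 1 with SMARTA, the library with the erythroid transcripts, it was 0.97 (edgeR adjusted p = 0.066).

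Foxo3, which shares its DNA recognition with Foxo1 and is known for roles in cell survival, lies on chromosome 10 from 42181841 to 42276755 on the minus strand. It was at 6.12, 10.2, 7.66 and 1.77 CPM without SMARTA and at 1.59, 7.11 and 8.23 CPM with SMARTA. Each group held 1 library with a low value, replicate 4 without and replicate 1 with SMARTA, and the others lay between 6.12 and 10.2 CPM. The means of 6.43 ± 3.53 and 5.64 ± 3.56 CPM (SD, n = 4 and 3) gave a log2 fold change of −0.19 ± 0.67 (SE; 95% interval −1.72 to 1.34; edgeR adjusted p = 0.92). The sign turned to 0.12 without replicate 2 lacking SMARTA and to 0.24 without replicate 1 with SMARTA.

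Foxo4, the FOXO member encoded on chromosome X from 101254528 to 101260873 on the plus strand, was at 2.78, 3.98, 2.19 and 2.15 CPM without and at 3.07, 2.53 and 4.35 CPM with SMARTA. The ranges of the groups overlapped almost entirely. Its log2 fold change was 0.26 ± 0.40 (SE; 95% interval −0.65 to 1.16; edgeR adjusted p = 0.796), and without replicate 3 with SMARTA it was −0.023. Foxo6, the remaining FOXO gene of the mouse, had no count in any of the 7 libraries, where 3 counts correspond to 0.0608 to 0.0882 CPM, a floor that covers counting error only.

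Foxp1 lies on chromosome 6 from 98925338 to 99522721 on the minus strand. Its level was 89.6, 179, 176 and 159.5 CPM without SMARTA and 149.8, 247 and 267 CPM with SMARTA. Replicate 1 without SMARTA was the lowest of the 7 libraries, and replicates 2 and 3 with SMARTA were above all the others. With means of 151 ± 41.9 and 221 ± 62.6 CPM (SD, n = 4 and 3), the log2 fold change was 0.55 ± 0.29 (SE; 95% interval −0.12 to 1.22; edgeR adjusted p = 0.37). It was 0.33 without replicate 1 lacking SMARTA, 0.38 without replicate 3 with SMARTA and 0.75 without replicate 1 with SMARTA, and in none of these fits was the gene called (edgeR adjusted p = 0.634, 0.652 and 0.163).

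Foxp4, a relative of Foxp1 with which it can form dimers, lies on chromosome 17 from 47867133 to 47924645 on the minus strand. It was at 5.63, 8.79, 11.3 and 6.29 CPM without SMARTA and at 7.99, 4.48 and 3.70 CPM with SMARTA. Replicates 2 and 3 with SMARTA were below all 4 libraries without, the mirror image of Foxo1 and Foxp1, and replicate 1 with SMARTA was again inside that range. The log2 fold change was −0.57 ± 0.40 (SE; 95% interval −1.48 to 0.34; edgeR adjusted p = 0.514), and −0.97 without replicate 1 with SMARTA (edgeR adjusted p = 0.208). Foxp2, the FOXP gene best known from the nervous system, had 0 to 27 counts per library, too few for the test.

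Foxp3 lies on chromosome X from 7579676 to 7595243 on the plus strand. It was at 2.57, 10.8, 0.630 and 3.71 CPM without SMARTA, and had no count in replicate 1 with SMARTA and 1.52 and 2.06 CPM in replicates 2 and 3. Replicate 2 without SMARTA was the highest and replicate 3 without SMARTA lay below replicates 2 and 3 with SMARTA, so the groups overlapped. The means of 4.42 ± 4.42 and 1.19 ± 1.07 CPM (SD, n = 4 and 3) gave a log2 fold change of −1.90 ± 1.32 (SE; 95% interval −4.90 to 1.11; edgeR adjusted p = 0.509). Without replicate 2 lacking SMARTA it was −0.96, and without replicate 1 with SMARTA −1.34.

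The level of Foxp3 was set beside markers of CD4 and regulatory T cells. Cd4, the coreceptor of helper T cells, was at 2.71, 6.57, 0.650 and 2.51 CPM without and at 8.48, 2.43 and 2.29 CPM with SMARTA, against 1028 to 1948 CPM for Cd8a. Among the 4 libraries without SMARTA Foxp3 and Cd4 were highest in replicate 2 and lowest in replicate 3, while replicate 1 with SMARTA had the highest Cd4 and no Foxp3 count. Ikzf2, which encodes the regulatory T cell factor Helios, was at 53.4, 49.1, 7.90 and 34.2 CPM without and at 0.445, 13.35 and 16.99 CPM with SMARTA; its lowest library was also that with no Foxp3 count. The 11 regulatory T cell markers other than Foxp3 summed to 1411 to 1922 CPM without and 1073 to 2482 CPM with SMARTA, of which only Gpr83 stayed under 1 CPM in every library. Of the 10 tested, 7 had a negative log2 fold change and 3 a positive one, Ctla4 (0.49), Ikzf4 (0.36) and Tnfrsf18 (0.15). An unadjusted edgeR p under 0.05 was found for 2 and no overlap for 3, against 18.6% and 19.2% of all genes tested. By edgeR 1 was called, lower with SMARTA, against 3.15% of all genes tested. The 1 called marker of this list was Izumo1r, which encodes folate receptor 4 and fell by 2.52 on the log2 scale, from a mean of 12.0 to one of 2.09 CPM (edgeR adjusted p = 0.0406). It was named after its value was seen. Activated CD8 T cells also express Il2ra, Ctla4, Tnfrsf18 and Tnfrsf4 of this list. The 3 CD4 T cell markers, Cd4, Zbtb7b and Cd40lg, summed to 35.5 to 90.3 CPM without and 122 to 147 CPM with SMARTA. Most of this sum was Cd40lg, at 25.18 to 66.5 CPM without and 90.65 to 113 CPM with SMARTA. Zbtb7b was at 7.64 to 22.4 and 25.9 to 45.4 CPM, while Cd4 itself overlapped between the groups. No overlap was thus found for 2 of the 3, against 19.2% of all genes tested, and edgeR called none of them. The part of other T cells in the Foxp3 values was not tested.

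**Figure D2:**
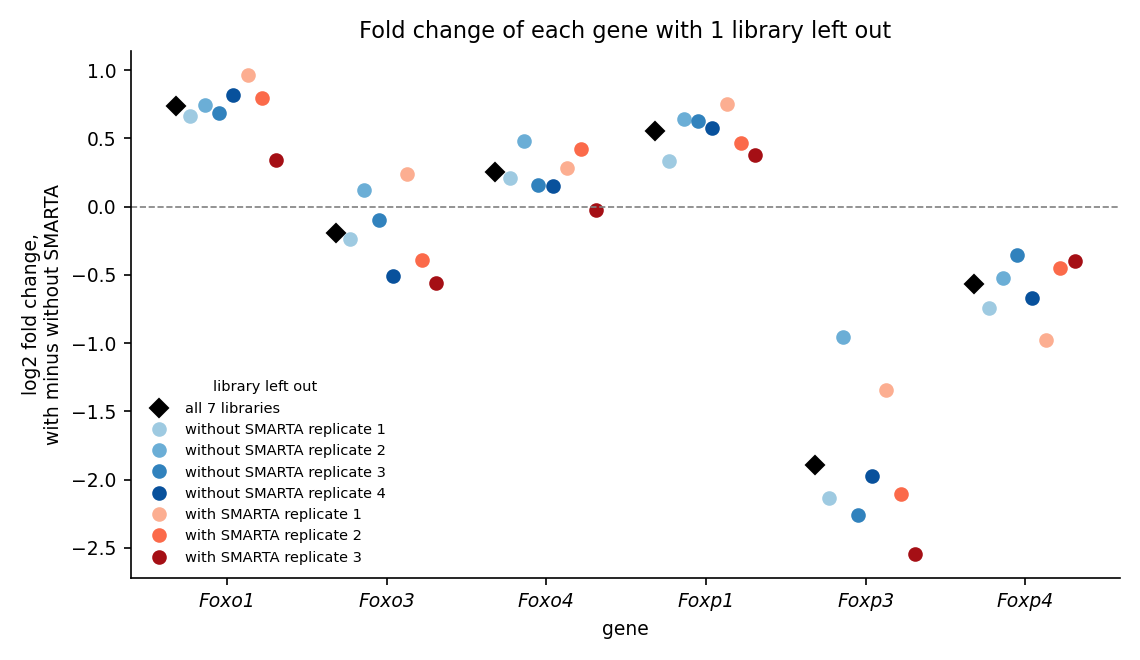
Log2 fold changes (with minus without SMARTA, linear axis) of the 6 genes are shown for all 7 libraries as black diamonds and for each fit that leaves out 1 library as coloured circles. Foxo1 stays between 0.34 and 0.97 and Foxp1 between 0.33 and 0.75, Foxp4 and Foxp3 stay below 0, and Foxo3 and Foxo4 lie on both sides of 0.

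To compare levels between genes, CPM were divided by the exon length in kilobases (RPKM). In this scale Foxp1 was the most abundant, with a mean of 13.2 ± 4.36 RPKM over the 7 libraries (SD, n = 7), followed by Foxo1 with 3.27 ± 1.41 and Foxp4 with 1.40 ± 0.540 RPKM. Foxo4, Foxo3 and Foxp3 followed with 0.863 ± 0.247, 0.805 ± 0.430 and 0.761 ± 0.908 RPKM. Foxp1 exceeded Foxo1 in all 7 libraries, by 2.75-fold to 5.65-fold, and Foxo1 exceeded Foxp4 in 6 of 7, the exception being replicate 3 without SMARTA. Foxp4 exceeded Foxo4 in 6 of 7 libraries. The last 3 did not differ beyond their spread: Foxo4 was above Foxo3 in 3 of 7 libraries and Foxo3 above Foxp3 in 5 of 7. Mean RPKM placed Foxp1 above 76.0% of the genes tested, Foxo1 above 52.8% and the 4 others above 28.6% to 38.1%.

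**Figure D3:**
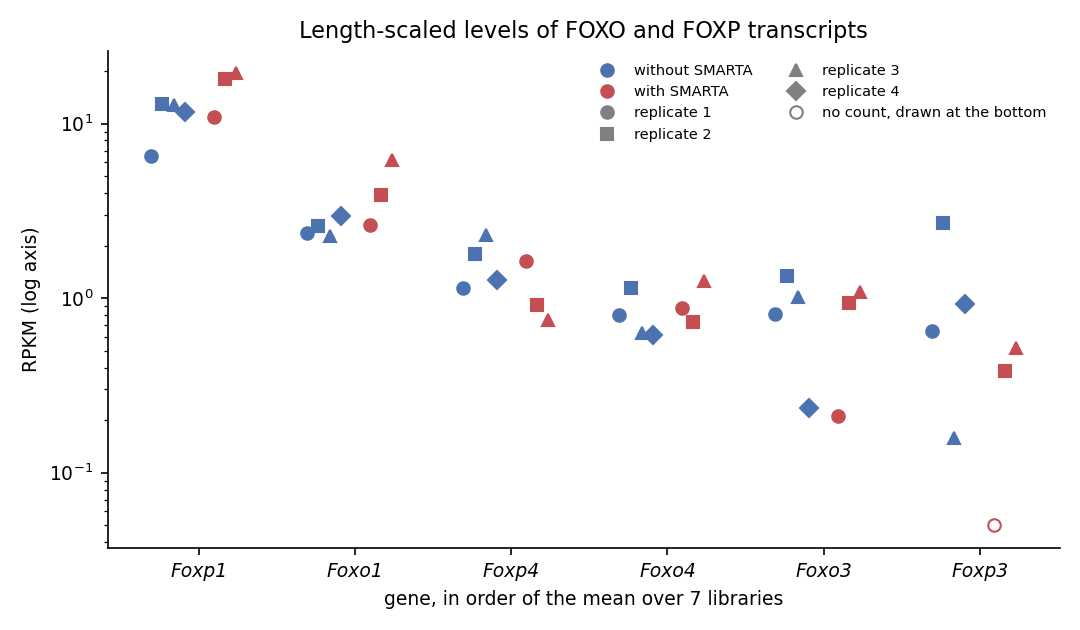
CPM per kilobase of exon (RPKM, log axis) are plotted for each library, with genes ordered by their mean over 7 libraries; blue is without and red with SMARTA, and the open circle marks the library with no Foxp3 count. Foxp1 lies above Foxo1 in every library, and Foxp3 has the widest spread.

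With the counting options in the file headers, a read pair on exons of more than 1 gene is assigned to neither. Foxp3 shares 857 of 3989 exon bases with 3 other genes, of which Ccdc22 on the opposite strand covers 590. Foxo1 shares 674 of 8665 and Foxp1 435 of 13751 exon bases with gene models that lack an established symbol. Foxo3, Foxo4 and Foxp4 share none, so the levels of Foxp3 in particular may be understated.

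Among the other forkhead genes 25 of 38 had a count in some library and 7 were tested. Of these 0 were called by edgeR, against 3.15% of all genes tested. An unadjusted edgeR p under 0.05 and no overlap were found for the same 2, against 18.6% and 19.2% of all genes tested. DESeq2 called both of these. It called more genes in all, 1740 of 15896 against 500 by edgeR, which bears on each DESeq2 call given below. Foxn3, a forkhead repressor linked to cell cycle checkpoints, was at 42.5, 69.3, 47.4 and 44.2 CPM without and 27.5, 30.7 and 30.4 CPM with SMARTA, with no overlap (log2 fold change −0.78 ± 0.24, SE; edgeR adjusted p = 0.121). Foxm1, which drives genes of mitosis, was at 24.8, 18.8, 32.7 and 17.8 CPM in the libraries without SMARTA and at 0.488, 6.58 and 9.08 CPM in those with it (−2.13 ± 0.78; edgeR adjusted p = 0.19). Without replicate 1 with SMARTA the Foxm1 value was −1.60 and passed (edgeR adjusted p = 0.0368). The median log2 fold change was 0.03 over the 6 FOXO and FOXP genes, −0.13 over the 7 other forkhead genes and −0.0034 over all genes tested.

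**Figure D4:**
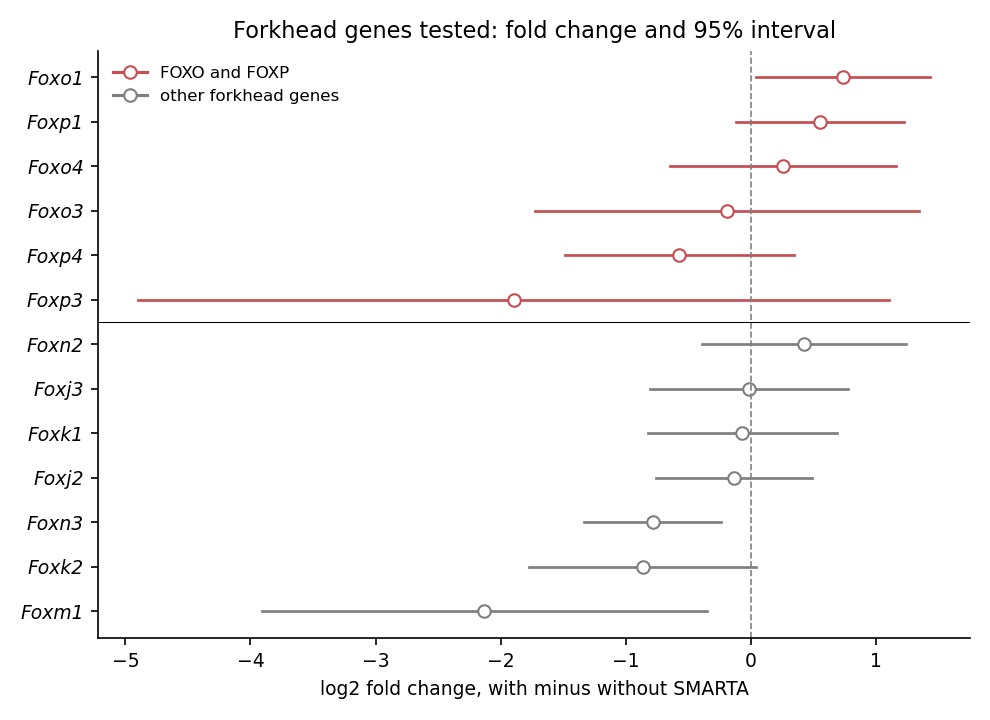
Log2 fold changes (with minus without SMARTA) of the 6 FOXO and FOXP genes in red and the 7 other tested forkhead genes in grey are drawn as open circles, with lines for the 95% interval. No gene passed an adjusted p of 0.05; Foxo1 (0.04 to 1.43), Foxn3 and Foxm1 have intervals that do not include 0.

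The genes upstream of FOXO were read from the same fit. Of 19 tested genes of PI3K, AKT and mTOR signalling 1 was called higher and none lower, against 3.15% of all genes tested. The median log2 fold change was 0.16. An unadjusted edgeR p under 0.05 was found for 6 and no overlap for 7, against 18.6% and 19.2% of all genes tested. The called gene was Pik3ap1, an adaptor that recruits PI3K to the membrane, at 180, 163, 201.5 and 201.5 CPM without and at 398, 378 and 380 CPM with SMARTA. It rose by 1.05 ± 0.16 on the log2 scale (SE; edgeR adjusted p = 0.0184), and every library with SMARTA was above all 4 without. Pik3cd, the PI3K catalytic subunit that predominates in lymphocytes, had means of 748 ± 119 and 1269 ± 28.3 CPM in the groups without and with SMARTA, in this order (0.76 ± 0.17; edgeR adjusted p = 0.0507). Rptor, the defining subunit of mTOR complex 1, had 40.9 ± 13.5 and 123 ± 52.3 CPM (1.59 ± 0.36; edgeR adjusted p = 0.0539). Among kinases that phosphorylate FOXO proteins, the values were 1.16 ± 0.30 for Sgk1 and −0.90 ± 0.25 for Akt1 (edgeR adjusted p = 0.0768 and 0.0886). These 4 genes were named after their values were seen. In the fits that leave out 1 library Pik3ap1 kept its call when the omitted library was replicate 2 of the group lacking SMARTA (edgeR adjusted p = 0.0368) or replicate 1 with SMARTA (0.016), and lost it in the 5 others, where the adjusted p was 0.0566 to 0.0802. Pik3cd passed without replicate 1 with SMARTA (edgeR adjusted p = 0.0458), and with all libraries under relative log expression size factors (0.0459), without robust estimation (0.0493), by limma-voom (0.0404) and by DESeq2 (0.00153). DESeq2 also called Rptor, Sgk1 and Akt1 (adjusted p = 0.000928, 0.00834 and 0.00842). Without replicate 1 with SMARTA the log2 fold change of Sgk1 was 0.67.

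Of 10 genes that restrain PI3K and AKT 1 was called higher and none lower, against 3.15% of all genes tested. The median log2 fold change was 0.28. An unadjusted edgeR p under 0.05 was found for 2 and no overlap for 2, against 18.6% and 19.2% of all genes tested. Inpp5d, which encodes the lipid phosphatase SHIP1, was at 382, 365, 444 and 428 CPM without and at 781, 611 and 974.96 CPM with SMARTA, again with no overlap (0.96 ± 0.19, SE; edgeR adjusted p = 0.0413). With 1 library left out it was called only without replicate 1 with SMARTA (edgeR adjusted p = 0.0346), and its adjusted p was 0.12 without replicate 4 lacking SMARTA. Without replicate 2 lacking SMARTA and replicate 1 with SMARTA together, its edgeR adjusted p was 0.0563. None of the 19 genes for FOXO-modifying enzymes and carriers was called by edgeR, and the median was −0.01. An unadjusted edgeR p under 0.05 was found for 6 and no overlap for 5, against the same shares of all genes. Those with the smallest p were Skp2, a ubiquitin ligase subunit that targets FOXO1, at 26.5 ± 3.56 CPM in the group without SMARTA and 12.0 ± 2.35 CPM in the group with it (−1.14 ± 0.26; edgeR adjusted p = 0.051), and Stk4, the kinase MST1, at 436 ± 68.8 and 779 ± 172 CPM (0.84 ± 0.21; edgeR adjusted p = 0.0673). DESeq2 called both, and limma-voom called Skp2 (adjusted p = 0.000188 and 0.00878 by DESeq2, 0.0463 by limma-voom). Stk4 also passed without replicate 1 with SMARTA (edgeR adjusted p = 0.0281).

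Genes that FOXO factors are known to induce had mostly positive fold changes. Of 27 listed genes 26 were tested, 2 were called higher and none lower, and 19 had a positive and 7 a negative log2 fold change. Of all genes tested 3.15% were called. An unadjusted edgeR p under 0.05 was found for 11 of the list and no overlap for 11, against 18.6% and 19.2% of all genes tested. The median was 0.72, against −0.0034 over all genes tested, of which 7913 were positive and 7983 negative. Without replicate 1 with SMARTA the median of the list was 0.39 and that of all genes −0.099. S1pr1, the sphingosine phosphate receptor for exit from tissue, was at 74.2, 172, 141 and 123 CPM without and at 844, 556 and 744 CPM with SMARTA. Each library with SMARTA was well above all 4 without, and the gene rose by 2.49 ± 0.29 on the log2 scale (SE; edgeR adjusted p = 0.0119). Txnip, an inhibitor of thioredoxin and of glucose uptake, was at 477, 770, 576 and 459 CPM without and at 2965, 1107 and 1548 CPM with SMARTA, and rose by 1.72 ± 0.34 (edgeR adjusted p = 0.0406). Its highest value was in the library with the erythroid transcripts, without which it rose by 1.20 (edgeR adjusted p = 0.0331). When single libraries were omitted, the S1pr1 call was kept in 6 of 7 fits and lost without replicate 4 lacking SMARTA (edgeR adjusted p = 0.0596). Txnip kept its call in only 2 of the 7 fits that leave out 1 library, those without replicate 2 lacking SMARTA and without replicate 1 with SMARTA. Its edgeR adjusted p reached 0.121 without replicate 4 lacking SMARTA and was 0.052 under library totals without TMM factors.

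Other genes of the list had values of either sign, and none of those that follow passed the edgeR test. Il7r, the interleukin 7 receptor chain, stood at 2.26 ± 0.53 on the log2 scale (SE; edgeR adjusted p = 0.0578; DESeq2 0.000478) and Tcf7, which encodes TCF1, at 1.47 ± 0.43 (edgeR adjusted p = 0.106; DESeq2 0.0123), or 0.96 without replicate 1 with SMARTA. Klf2, a quiescence factor upstream of S1pr1, was low in both groups, at 1.78 ± 1.21 and 4.10 ± 3.95 CPM, with 8.63 CPM in replicate 1 with SMARTA (1.20; edgeR adjusted p = 0.44), and without that library its log2 fold change was 0.03. Ccr7, the chemokine receptor of lymph node homing, had the opposite sign, with 449 ± 145 and 179 ± 87.1 CPM (−1.33 ± 0.42; edgeR adjusted p = 0.131; DESeq2 0.0218). It was −0.79 without replicate 2 lacking SMARTA and replicate 1 with SMARTA together. The cell cycle inhibitor Cdkn1b (1.11 ± 0.29), the PI3K inhibitor Pik3ip1 (1.86 ± 0.45) and the ubiquitin ligase subunit Fbxo32 (1.15 ± 0.27) had edgeR adjusted p of 0.0789, 0.0632 and 0.0595, and DESeq2 called all 3 (0.0069, 0.00139 and 0.0013). All genes of this paragraph were named after their values were seen. With 1 library left out Il7r passed if replicate 2 lacking SMARTA was omitted (edgeR adjusted p = 0.0305) or replicate 1 with SMARTA (0.0331), and Pik3ip1 passed in the first of these (0.034).

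**Figure D5:**
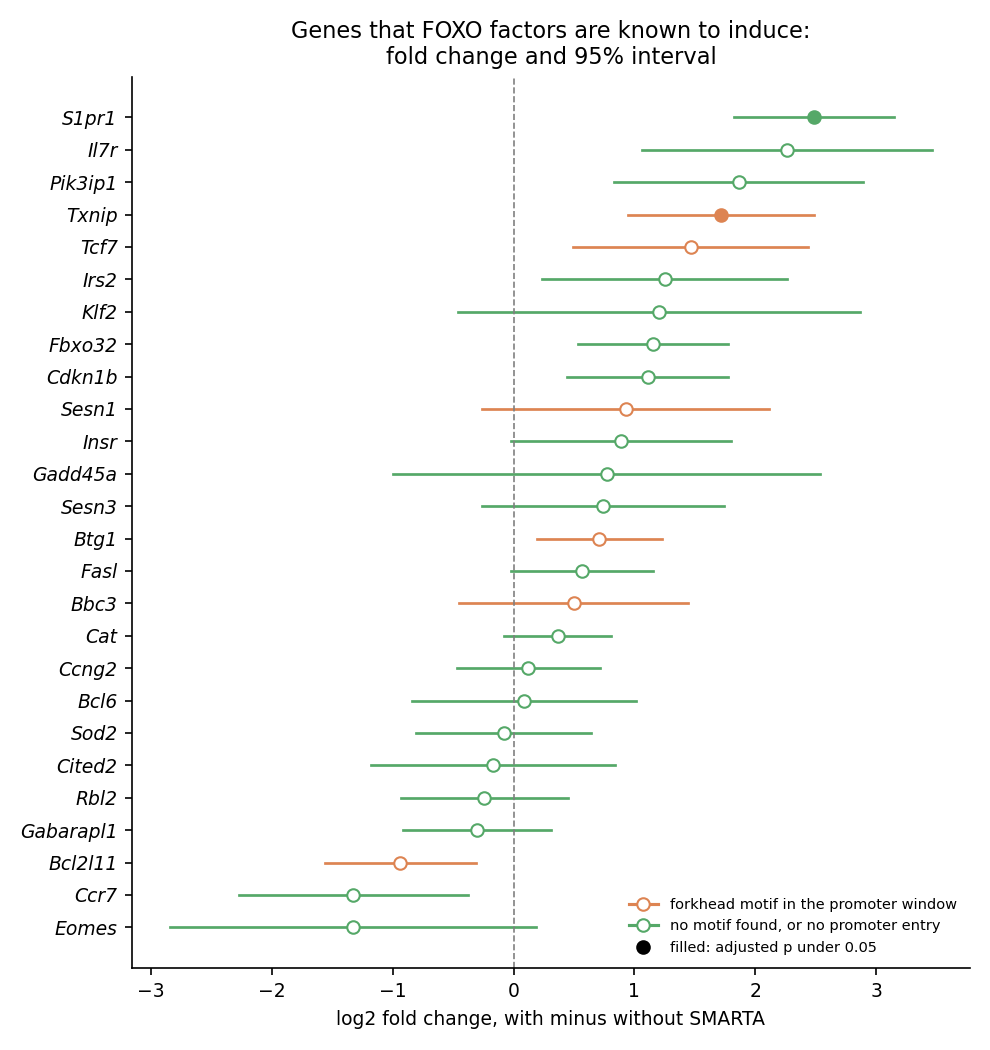
Log2 fold changes (with minus without SMARTA) of the 26 tested genes that FOXO factors are known to induce are ordered by size, with lines for the 95% interval; filled circles passed an adjusted p of 0.05 and orange marks a forkhead motif in the promoter window. S1pr1 and Txnip are the filled circles, 19 genes lie above 0 and 7 below.

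FOXO and FOXP proteins bind DNA through the forkhead domain, whose core motif was searched on both strands in promoter windows from 250 bases before to 50 bases after the annotated start (RefSeq, GRCm38.p6). Of 4 motifs searched, GTAAACA was chosen for display with the matches of all in view. It was found in 6 of the 23 FOXO-induced genes that have a window (26.1%), and in 1095 of 27025 genes in all (4.05%). The shorter TAAACA, which lies within it, was in 8 of the 23 (34.8%) and 15.1% of all genes. The motif CAAAACA was in 2 of the 23 (8.7%) and 7.2% of all genes, and AACAAAAC was in 0 of the 23 and 2.83% of all genes. The list consists of known FOXO targets, so a motif there is no independent evidence. None of the 5 FOXO and FOXP genes with a window held GTAAACA, and Foxp1 and Foxp3 held TAAACA. The 6 matches are printed because they mark where a factor of this family could bind at a gene measured here. Each is shown 5′ to 3′ on the strand of the gene with 11 bases on each side, the motif or its reverse complement in capitals.
Txnip, chr3:96557825-96557853, plus strand: ttggaggcctgGTAAACAagggccaagta
Tcf7, chr11:52282577-52282605, minus strand: cctttataggaGTAAACAgacccccgcca
Btg1, chr10:96616786-96616814, plus strand: gggggtttattTGTTTACaagcagattac
Sesn1, chr10:41810585-41810613, plus strand: gaaccttctacTGTTTACcagccttttgg
Bbc3, chr7:16310083-16310111, plus strand: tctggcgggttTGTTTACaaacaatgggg
Bcl2l11, chr2:128125800-128125828, plus strand: aagacactaggGTAAACAcgccggggtgg

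The motif began 121 bases before the annotated start in Txnip, 204 in Btg1, 167 in Bbc3 and 227 in Bcl2l11, and 1 and 22 bases after it in Tcf7 and Sesn1. The 6 genes differed in sign. Txnip was called higher, and the antiproliferative gene Btg1 (0.71), the stress-induced Sesn1 (0.93), Tcf7 (1.47) and the death gene Bbc3, which encodes PUMA (0.50), had positive log2 fold changes that were not called (edgeR adjusted p = 0.136, 0.399, 0.106 and 0.591). Without replicate 1 with SMARTA Sesn1 was 0.40 and Bbc3 0.17. Bcl2l11, which encodes the death protein BIM, was at 497 ± 21.0 and 259.5 ± 102 CPM (−0.94 ± 0.27, SE; edgeR adjusted p = 0.107; DESeq2 0.0249). S1pr1 has no entry in the table of windows. A match is a description of the letters and says nothing of binding in these cells.

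Of 5 genes that FOXO factors are known to repress none was called, and the median was −0.03. An unadjusted edgeR p under 0.05 was found for 1, against 18.6% of all genes tested. This was Myc, the growth regulator, at 366 ± 84.7 CPM without and 149 ± 75.8 CPM with SMARTA (−1.30 ± 0.40, SE; edgeR adjusted p = 0.122; DESeq2 adjusted p = 0.0169). Ccnd2, a cyclin of the early cell cycle, stood at 0.08 (edgeR adjusted p = 0.881) and at −0.073 under library totals without TMM factors. In a list of 15 T cell quiescence genes 14 were tested and 1 was called higher and none lower, with a median of 0.57. Of all genes tested 3.15% were called. An unadjusted edgeR p under 0.05 was found for 6 of the list and no overlap for 6, against 18.6% and 19.2% of all genes tested. Slfn2, a schlafen protein needed for T cell quiescence, was at 940, 838, 1043 and 867 CPM without and at 1788, 1580 and 2126 CPM with SMARTA, with no overlap (0.99 ± 0.17; edgeR adjusted p = 0.0257). With 1 library left out it kept its call if the omitted library was replicate 2 lacking SMARTA (edgeR adjusted p = 0.0489) or replicate 1 with SMARTA (0.0179), and its adjusted p reached 0.102 without replicate 4 lacking SMARTA. Bach2, a repressor that restrains effector differentiation, had the opposite sign, with 79.3 ± 34.6 and 23.5 ± 8.49 CPM (−1.75 ± 0.42; edgeR adjusted p = 0.0625), and was named after its value was seen. It was called lower under library totals (0.0443), with no filter on low counts (0.0348) and by DESeq2 (adjusted p = 0.000775).

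The genes whose log2 CPM across the 7 libraries were most like those of each factor were taken from about the same number of candidates each time (7898 or 7899 genes). Their correlations are descriptions over 7 points that include both groups. As the highest of so many candidates, they are high in part by selection. For Foxo1 they were the ubiquitin-conjugating enzyme gene Ube2b (Pearson r = 0.993, Spearman rho = 0.964), Nptn (0.993 and 0.964) and Parp4 (0.986 and 0.893). When the 2 libraries farthest from the median of Foxo1, replicates 2 and 3 with SMARTA, were left out, r was 0.937, 0.955 and 0.733. For Foxp1 they were Cd55 (0.973 and 0.75), Nt5e (0.972 and 0.964), which encodes the ectonucleotidase CD73, and Tulp4 (0.965 and 0.964), with r of 0.882, 0.938 and 0.881 without its 2 farthest libraries. Foxp4 was closest to Bax (0.981 and 1), Scrib and Rftn1, and Foxp3 to Otud4 (0.991 and 1), Tgs1 and Nop14. Foxo3 was closest to Senp2 (0.979 and 0.964), Atg2b and Nudt13. Without replicate 4 lacking SMARTA and replicate 1 with SMARTA, r was 0.962, 0.756 and 0.588 for these genes. Foxo4 was closest to Zdhhc18 (0.974 and 0.929), Snx18 and Zfp217, with r of 0.93, 0.953 and 0.719 without its 2 farthest libraries. No gene was among the closest of 2 factors, and none of these 18 genes was called between the groups (edgeR adjusted p = 0.163 to 0.985).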

How the data were processed

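RNA sequencing of sorted OT1 cells gave 7 libraries, 4 without and 3 with SMARTA, grouped by title. Per the labels' protocols, polyadenylated RNA was amplified with SMART-seq V4, which does not mark strand. The submitters' processing notes name GRCm38.p6, the aligner STAR (2.6.0c) and the counter featureCounts (1.6.2). The values deposited by the authors are raw counts, made per the file headers from paired reads summed by gene name (GENCODE M17).

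Counts were tested with edgeR 4.0.16 in R 4.3.3: filterByExpr (minimum count 10, total 15), TMM scaling, robust glmQLFit and glmQLFTest, two-sided, no covariate, Benjamini-Hochberg adjustment over all 15896 genes tested, threshold 0.05. A positive log2 fold change means higher with SMARTA. Standard errors were derived from the F statistic, and 95% intervals use the fit's degrees of freedom. Levels across genes are RPKM with the files' exon lengths. Log2 CPM used a prior count of 2. Fits were tested on simulated data. The 15 alternatives include DESeq2 1.42.0, limma-voom (limma 3.58.1) and each library left out; 1 was chosen after seeing the data.

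The 6 genes and all lists were chosen with earlier results of these data known. One FOXO-induced gene is not reported here and is left out of the counts of that list. Named are the 6 genes, Foxo6 and Foxp2, up to 4 called genes of each list (if none was called, the 2 of smallest p), and per factor with a mean of at least 1 CPM the 3 most correlated genes among those averaging at least 3 on the log2 CPM scale, without unnamed models and receptor segments. Marker genes, the genes with a promoter motif and those said to be named after their values were seen fall outside this rule. No 2 replicates of a group agreed within sampling noise, since chi-square over its degrees of freedom was 83.6 to 399.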

Additional observations from a re-analysis of the deposited data

Results flagged for a closer look

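Skp2, the ubiquitin ligase subunit that targets FOXO1, had 31.8 CPM in replicate 1 without SMARTA, apart from the other 3 libraries of that group at 24.0 to 25.1 CPM. The gap to the nearest library was 0.858 of the whole range of the 4, above the 95% critical value for groups of 4. Chance alone gives such a gap in about 1 in 20 groups. The 6 genes and the tested genes named from the lists other than markers were all screened, so 1 such gap among them would not be unusual. For Skp2 all 3 libraries with SMARTA lay below all 4 without. None of the 6 FOXO and FOXP genes had such a library.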

How the results depend on the processing

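None of the 6 FOXO and FOXP genes was called under any of the 15 alternatives. Foxo1, Foxp1, Foxp3 and Foxp4 kept their signs in all of them, with ranges of 0.34 to 1.00, 0.33 to 0.86, −3.44 to −0.36 and −0.97 to −0.35. Foxo3 was −0.19 and turned to 0.12 without replicate 2 lacking SMARTA, 0.24 without replicate 1 with SMARTA and 0.57 without either; with 1 library left out it ranged from −0.56 to 0.24. In the same fits Foxo4 ranged from −0.023 (without replicate 3 with SMARTA) to 0.48, and Ccnd2 from −0.074 (without replicate 1 lacking SMARTA) to 0.21. Ccnd2 was −0.073 under library totals. The cause of these changes was not tested.

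The count of called genes, 500, was 1740 by DESeq2, 17 to 907 with 1 library left out and 1257 without replicate 2 lacking SMARTA and replicate 1 with SMARTA together. The 2 FOXO-induced genes called higher became 1 under library totals, 7 by DESeq2, 4 by limma-voom, 0 to 4 with 1 library left out and 8 without both libraries. DESeq2 also called 2 of that list lower, Ccr7 and Bcl2l11, where no other setting called any lower. Library totals moved the median of all genes by −0.16, and 29.1% of calls were then higher, against 48.2%. With the replicate number as a block (replicate block), 0 genes were called and 0 FOXO-induced genes, with 1631 genes at an unadjusted edgeR p under 0.05. That fit leaves few degrees of freedom and replicate 4 without SMARTA has no partner, so its 0 calls do not decide whether the numbers pair the libraries. The labels do not say whether they do. Deviations of same-numbered libraries correlated at −0.14, 0.03 and −0.27, and no library was closest to its own number. So few correlations cannot settle the question.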

Other observations

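As a share of the summed RPKM of all 44 forkhead genes, Foxp1 made up 18.1%, 27.1%, 30.9% and 30.0% in replicates 1 to 4 without SMARTA and 37.4%, 38.9% and 40.1% in replicates 1 to 3 with SMARTA. These shares did not overlap between the groups, whereas the CPM of Foxp1 did. Of all genes tested 19.2% had no overlap of CPM, and how often shares of other gene groups separate was not examined. The sum itself was 36.01 to 48.1 RPKM without and 29.2, 46.2 and 48.4 RPKM with SMARTA, lowest in the library with the erythroid transcripts. Foxo1 made up 5.38% to 7.63% without and 8.98%, 8.48% and 12.8% with SMARTA, also with no overlap. The shares of Foxo3, Foxo4, Foxp3 and Foxp4 did not separate the groups. The ratio of Foxp1 to Foxo1 was 2.75 to 5.65 without and 3.13 to 4.59 with SMARTA, within the range of the other group. No test was made of these shares, which were examined after the values of the genes were seen.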
